A study of Bos taurus with 48 samples.

Results

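The calves described here were the controls of a study of weaning at housing in beef cattle. They were taken indoors with their dam and were not weaned, and the question of the comparison was how the transcriptome of their circulating leukocytes on day (d) 7 after housing differed from that on d 0. The comparison took every library of control calves 1755, 1759, 1763, 1789, 1802 and 1803 that was labelled d 0 or d 7, which gave 12 of the 48 libraries of the series, paired within 6 calves. Each library was poly(A) RNA of the total leukocytes of 1 calf, obtained from blood after lysis of the red cells. Calves were of Continental breed per the labels, and intact male Simmental calves per the study's methods. All of them had been vaccinated against bovine respiratory syncytial virus and infectious bovine rhinotracheitis virus before housing. The control calves were penned with their dam from d 0, and their d 0 blood was taken before they were housed. The weaned calves, used here only beside the control calves, were separated from their dam on d 0 and penned with other weaned calves. Per the study's methods, the calves grazed until d 0 and were then offered silage and concentrate. No group without housing was sequenced among the samples used here. Housing, the change of feed, the passing of time and the handling of the calves therefore cannot be told apart. Only 2 of the 6 control calves had both libraries on 1 sequencing flowcell, so that in the others the flowcell changed along with the day.

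Circulating leukocytes of cattle are a mixture of lymphocytes, neutrophils, monocytes and eosinophils, and the RNA of the mixture moves both when cells change their expression and when the share of a cell type changes. Leukocytes recognise viral RNA through sensors such as RIG-I and the endosomal Toll-like receptors, which switch on type I interferon and, through it, a large set of antiviral genes. Cytotoxic lymphocytes carry granzymes, and lymphocytes that divide need the genes of DNA replication and mitosis. In RNA of total leukocytes, fewer cells of a type and less RNA of a gene per cell cannot be told apart.

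Transcripts fell more often than they rose between d 0 and d 7. Genes were tested where their counts over the 12 libraries summed to 10 or more. Of 13829 such genes, 2286 fell (16.5%) and 1072 rose (7.75%) at an adjusted p under 0.05 (edgeR quasi-likelihood F-test with calf as block, Benjamini-Hochberg adjustment), together 24.3% of the genes tested. When a change of at least 2-fold was also required, 458 genes fell (3.31%) and 79 rose (0.571%). The median log2 change of all genes tested was 0.04, and the smallest adjusted p was 4.60e-05. The counts past the adjusted threshold depended on single calves. At an unadjusted p under 0.05 there were 4339 of 13575 genes (32.0%) without calf 1763, against 5798 (41.9%) with all calves. Without calf 1763, 25 genes fell and 4 rose at an adjusted p under 0.05, and 28 genes, of which 25 fell and 3 rose, passed both with all calves and in each of the 6 fits that left out 1 calf. Symbols were at hand for 5 of them, namely DDX58, GZMA, CXCL10, XPO1 and FOSB. Of the genes named by rule, 40 that passed with all calves did not pass without calf 1763.

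The genes that fell and the genes that rose lay at different levels of expression. When the genes tested were divided into 4 classes of equal size by their mean CPM (counts relative to the library total after TMM scaling, not to gene length), the second class, from 4.47 to 26.4 CPM, held 868 genes that fell and 147 that rose. In the third class 937 genes fell and 253 rose. In the highest class, from 91.4 CPM, the order was turned, with 369 genes that fell and 633 that rose, and the median log2 change was 0.25, against -0.27 in the second class. The lowest class, at up to 4.47 CPM, held 112 genes that fell and 39 that rose.

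**Figure D1:**
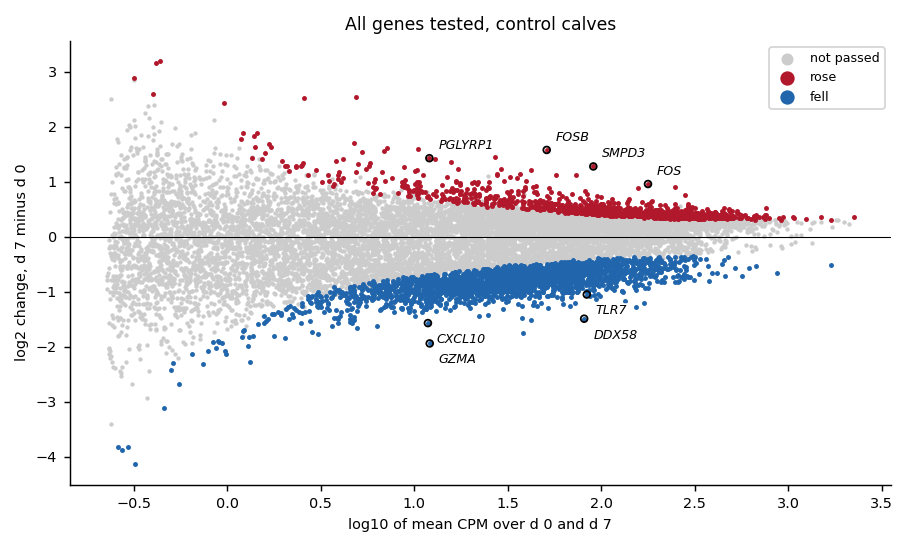
Log2 change from d 0 to d 7 in the 6 control calves (y axis) against log10 of the mean CPM over both days (x axis) for the 13829 genes tested, with genes past an adjusted p of 0.05 in red (1072 rose) or blue (2286 fell), the remainder in grey, and 8 named genes circled. The genes that fell lie mostly in the middle of the range of expression and those that rose extend further to the right.

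The calves differed in how far these genes moved. The median change of the 458 genes that fell at least 2-fold was -2.01 in calf 1755, -1.33 in calf 1759, -1.20 in calf 1763, -0.70 in calf 1789, -0.58 in calf 1802 and -0.39 in calf 1803 (log2(CPM + 1) scale). The genes had been chosen on these libraries, so that the values describe the calves and do not test the fall. Of the 458 genes, 316 were lower on d 7 in all 6 calves, and of the 79 genes that rose, 45 were higher in all 6. The median rise of the 79 genes ran from 0.47 in calf 1803 to 1.23 in calf 1759. Calves 1802 and 1803 were those with both libraries on the same flowcell, per the study's supplementary sequencing records. In them, 343 of the 458 genes were lower and 61 of the 79 higher in both calves. With these 4 libraries alone 0 of 12492 genes passed the test, and 281 (2.25%) had an unadjusted p under 0.05. So few libraries give the test little power, and these calves also had the smallest median falls. Flowcell and calf cannot be told apart in this fit.

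**Figure D2:**
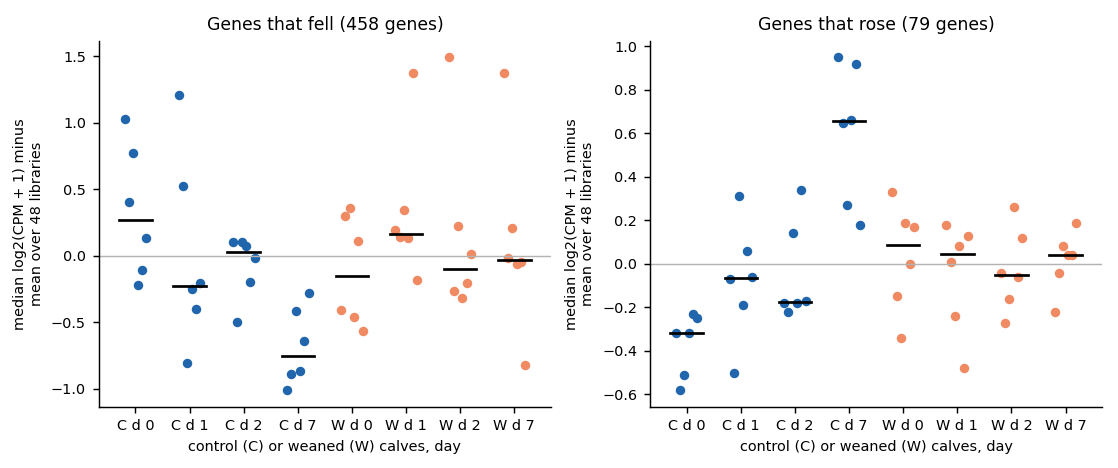
Median over the genes that fell (left, 458 genes) and that rose (right, 79 genes) at least 2-fold in control calves, of log2(CPM + 1) minus each gene's mean over the 48 libraries (y axis), for each library by treatment and day (x axis), with the bar at the median of 6 calves. The genes were chosen on the control libraries of d 0 and d 7, which accordingly stand apart, while single libraries of other groups, such as control calf 1755 on d 1 at 1.21 and weaned calf 1758 on d 2 at 1.49, reach further up for the genes that fell.

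In the same summary the 458 genes lay between -0.22 and 1.03 in the 6 control libraries of d 0, and between -1.01 and -0.28 in those of d 7. Control libraries of d 1 ran from -0.81 to 1.21 and those of d 2 from -0.50 to 0.10. The 79 genes that rose lay between -0.58 and -0.23 on d 0 and between 0.18 and 0.95 on d 7, without overlap. Library totals were 2944964 to 3771300 counts on d 0 and 1992050 to 3888457 on d 7, and 3 counts, the limit that a count of 0 allows, amounted to 0.772 to 1.51 CPM, for counting error only. The library of calf 1759 on d 7 had the lowest total and the lowest TMM factor of the 12, at 0.837. With the share of reads left after removal of duplicates as a covariate, 959 genes fell and 137 rose, of which 953 and 132 were among those that moved the same way without it.

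Genes for the sensing of viral RNA and for the interferon response fell. Of 64 genes fixed for interferon-stimulated and antiviral functions, 8 could be identified, and all 8 passed the test in the downward direction, 6 of them with at least a 2-fold change. Their median log2 change was -1.12, against 0.04 over all genes tested and -0.75 over the 586 genes with a symbol, from which they came. Symbols came only from lists of differentially expressed genes made by the study on these samples, and all 8 were on its list for this same comparison, so that the count is not independent evidence of the direction. The remaining genes of the list were not identified. The same limit holds for each list below. Their base is the 586 genes with a symbol, of which 209 fell and 24 rose.

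DDX58 (ENSBTAG00000003366), which encodes the cytosolic RNA sensor RIG-I, had the smallest p of all named genes. It stood on d 0 at 125 CPM in calf 1755, 133 in calf 1759, 136 in calf 1763, 66.5 in calf 1789, 59.0 in calf 1802 and 205 in calf 1803. On d 7 it stood at 31.3, 33.0, 46.3, 22, 44.8 and 69.0 CPM in the same order of calves. The transcript was lower on d 7 in every calf, although the groups overlapped, since calf 1803 on d 7 was above calves 1789 and 1802 on d 0. The mean fell from 121 ± 53.3 to 41.1 ± 16.4 CPM (SD, n = 6), a log2 change of -1.49 (adjusted p = 4.60e-05, SE 0.18). The exact sign-flip permutation p was 0.0312, the smallest that 6 calves allow.

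TLR7 (ENSBTAG00000022161) and TLR3 (ENSBTAG00000008682) encode endosomal receptors for single- and double-stranded RNA. TLR7 had 164, 111, 165, 68.2, 77.5 and 101 CPM on d 0 in calves 1755, 1759, 1763, 1789, 1802 and 1803, and 39.4, 36.6, 71.7, 34.3, 65.0 and 74.4 CPM on d 7, a log2 change of -1.05 (adjusted p = 0.00153, SE 0.19). TLR3 had 22.5, 30.3 and 54.4 CPM at the lowest, median and highest on d 0 and 14.3, 16.1 and 22.2 CPM on d 7, a log2 change of -0.94 (adjusted p = 0.00438, SE 0.21). Both were lower in 6 of 6 calves, and for TLR3 every library of d 7 was below every library of d 0. TNFSF10 (ENSBTAG00000018994), the death ligand TRAIL, had 23.9, 58.0 and 68.2 CPM on d 0 and 14.1, 24 and 31.6 CPM on d 7, a log2 change of -1.01 (adjusted p = 0.00326, SE 0.21). Without calf 1763 none of these 3 genes passed the test.

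CXCL10, which had the largest fall of the list, is described with the chemokines. The other members, PNPT1, TBK1 and CD274, were named after their values were seen. PNPT1 (ENSBTAG00000008909), an exoribonuclease that is also interferon-induced, fell by 1.19 on the log2 scale (adjusted p = 0.00289). TBK1 (ENSBTAG00000017401), the kinase that phosphorylates the interferon regulatory factors downstream of RIG-I, fell by 1.00 (adjusted p = 0.00817), and CD274 (ENSBTAG00000000095), the checkpoint ligand PD-L1, fell by 1.25 (adjusted p = 0.0102).

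Of 37 genes fixed for Toll-like and innate pattern receptors and their signalling, 8 were identified, 6 fell and 1 rose, with a median log2 change of -0.96. Besides the 3 genes shared with the interferon list, those that fell were TLR10, TANK and MAP3K7, the last 2 named after their values were seen. TANK (ENSBTAG00000006654), an adaptor that binds TBK1, fell by 0.86 on the log2 scale (adjusted p = 0.00571), and MAP3K7 (ENSBTAG00000002625), the kinase TAK1 of NF-kappaB signalling, fell by 1.03 (adjusted p = 0.00493). PGLYRP1, a peptidoglycan recognition protein of neutrophil granules, was the member that rose and is described with the genes that rose.

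**Figure D3:**
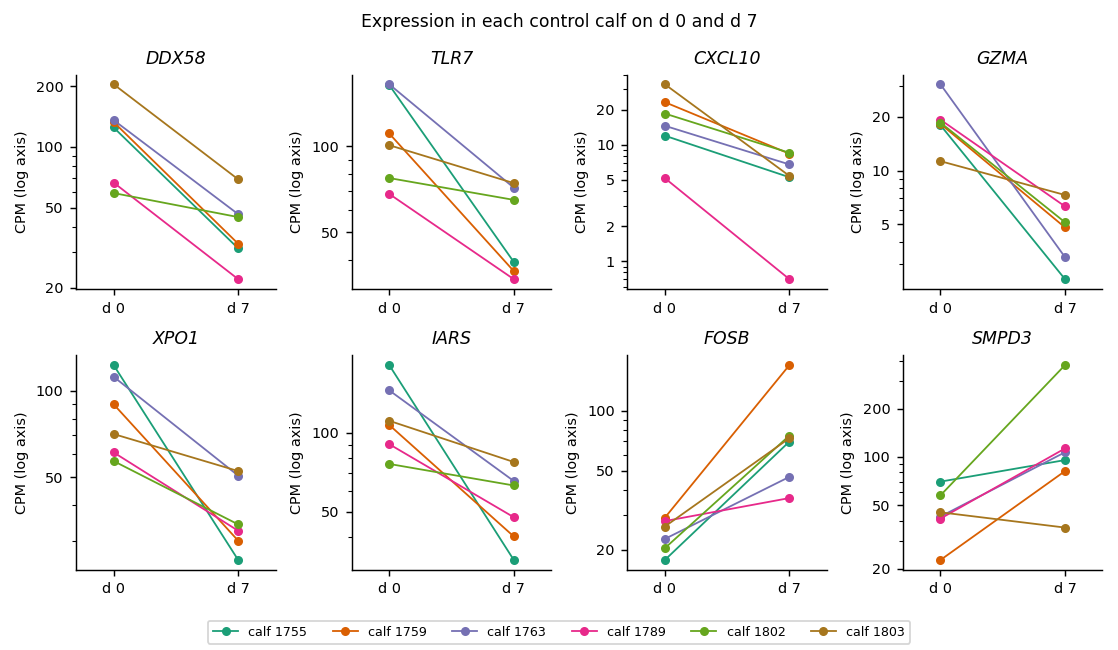
CPM (log axis) of 8 genes on d 0 and d 7, with a line for each of the 6 control calves. DDX58, TLR7, CXCL10, GZMA, XPO1 and IARS were lower on d 7 in all calves, FOSB was higher in all calves, and SMPD3 was higher in 5 of 6.

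Among inflammatory cytokines and chemokines, the direction was mixed. Of 37 genes fixed, 16 were identified and 14 had enough counts, of which 4 fell and 1 rose, with a median log2 change of 0.07. CXCL10 (ENSBTAG00000001725), the interferon-induced chemokine that attracts activated T cells, had 12, 23.3, 14.6, 5.18, 18.6 and 33.2 CPM on d 0 in calves 1755, 1759, 1763, 1789, 1802 and 1803. On d 7 the same calves had 5.27, 8.4, 6.79, 0.7, 8.55 and 5.41 CPM. Each calf was lower on d 7, and calf 1789 had the lowest value on both days. The log2 change was -1.57 (adjusted p = 0.00161, SE 0.28, exact sign-flip permutation p = 0.0312). With all 24 control libraries in the fit CXCL10 did not pass (log2 change -1.48, adjusted p = 0.061). With only the calves that shared a flowcell the log2 change was -1.87 for CXCL10. It was closer to 0 than with all calves for DDX58 at -1.02, TLR7 at -0.35, TLR3 at -0.69 and TNFSF10 at -0.51. Those calves also had the smallest median falls of the genes that fell at least 2-fold.

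The other cytokine genes that fell were TNFSF10, IL1A and IL18, the last 2 named after their values were seen. IL18 (ENSBTAG00000000277), a cytokine that induces interferon gamma, fell by 0.92 on the log2 scale (adjusted p = 0.0465), and IL1A (ENSBTAG00000010349), interleukin 1 alpha, rested on 26 counts over the d 0 libraries and 5 over those of d 7 (adjusted p = 0.0269). LIF (ENSBTAG00000007424), a cytokine of the interleukin 6 family, rose from 3.56, 5.22 and 10.8 CPM at the lowest, median and highest to 5.14, 16.3 and 22.2 CPM, a log2 change of 1.22 (adjusted p = 0.008, SE 0.31). It was higher in 5 of 6 calves, and its log2 change was 0.21 with the calves on 1 flowcell. CCL22 (ENSBTAG00000017718), a chemokine for regulatory and Th2 T cells, had 4 counts on d 0 and 16 on d 7 and did not pass (adjusted p = 0.0756).

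Among genes of cytotoxic lymphocytes, GZMA, KLRD1 and CD226 fell. Of 28 markers of NK and cytotoxic lymphocytes, 7 were identified, 5 tested, 3 fell and 0 rose, with a median log2 change of -1.43. All genes with a symbol had a median of -0.75. The summed level of the 7 identified markers ran from 36.9 to 82.1 CPM on d 0 and from 19.1 to 41.4 CPM on d 7. GZMA (ENSBTAG00000021958), the granule protease granzyme A, showed the clearest separation. On d 0 it had 18 CPM in calf 1755, 18.3 in calf 1759, 30.5 in calf 1763, 19.3 in calf 1789, 18.6 in calf 1802 and 11.3 in calf 1803. On d 7 these calves had 2.46, 4.8, 3.27, 6.3, 5.13 and 7.3 CPM. No library of d 7 reached the lowest of d 0. The log2 change was -1.94 (adjusted p = 3.66e-04, SE 0.30, exact sign-flip permutation p = 0.0312), which is a 3.85-fold fall, and it ran from -2.25 to -1.73 when each calf was left out in turn.

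KLRD1 (ENSBTAG00000000966), which encodes the CD94 chain of an NK receptor, had 2.25, 5.96 and 15.6 CPM at the lowest, median and highest on d 0 and 1.05, 2.07 and 3.0 CPM on d 7, a log2 change of -1.55 (adjusted p = 0.00603, SE 0.37), and it was lower in 5 of 6 calves. CD226 (ENSBTAG00000009266), an activating receptor of NK and T cells, had 12.4, 18.3 and 29.8 CPM on d 0 and 6.6, 10.1 and 18.1 CPM on d 7, a log2 change of -0.83 (adjusted p = 0.022, SE 0.26). Neither passed without calf 1759 or without calf 1763, and CD226 did not pass without calf 1755.

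Of 24 T cell markers, 4 were identified, 3 fell and 0 rose, with a median log2 change of -1.04. Over all genes with a symbol the median was -0.75. The defining markers of the CD3 complex were not among those identified. BTLA (ENSBTAG00000011871), an inhibitory receptor of lymphocytes, had 10.5, 15.8 and 33.2 CPM at the lowest, median and highest on d 0 and 4.79, 8.52 and 11.3 CPM on d 7, a log2 change of -1.14 (adjusted p = 0.00395, SE 0.25). TRAT1 (ENSBTAG00000000183), an adaptor of the T cell receptor, changed by -0.95 (adjusted p = 0.0188, SE 0.28) and was lower in 4 of 6 calves. The third, ICOS (ENSBTAG00000021596), a co-stimulatory receptor, was named after its value was seen and fell by 0.87 on the log2 scale (adjusted p = 0.0426). The summed level of the 4 markers had a median of 55.2 CPM on d 0 and 28.3 CPM on d 7, and each day's lowest library was at 33.4 and 18.5 CPM.

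Of 21 B cell markers, 3 were identified and 2 fell, TLR10 and STAP1. TLR10 (ENSBTAG00000014042), a Toll-like receptor of B cells, changed by -0.98 (adjusted p = 0.0206, SE 0.30), and STAP1 (ENSBTAG00000000962), an adaptor downstream of the B cell receptor, by -1.11 (adjusted p = 0.0188, SE 0.33). Each was lower in 5 of 6 calves, and with the calves on 1 flowcell alone the log2 change of TLR10 was 0.02. The B cell sum was 13.2 to 55.9 CPM on d 0 and 7.7 to 21.1 CPM on d 7. The median log2 change of the 3 B cell markers was -1.11, beside -0.75 over all genes with a symbol. None of the 7 markers fixed for gamma-delta T cells was identified. The study reported blood cell percentages for its control calves, of which those sequenced were a part. It marked none of lymphocytes, neutrophils, monocytes or eosinophils as different from baseline on d 7. The part of cell composition in the changes was not tested.

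Many of the identified genes of cell division fell. Of 80 genes fixed for the cell cycle and mitosis, 37 were identified, of which 24 fell and 1 rose, with a median log2 change of -0.98. Of these 37, 22 were on the study's list for the same comparison. Among all 586 genes with a symbol, 209 fell and 24 rose, with a median of -0.75. CENPI (ENSBTAG00000021254), a protein of the inner kinetochore, had 29.9, 45.2 and 97.0 CPM at the lowest, median and highest on d 0 and 13, 18.4 and 30.8 CPM on d 7, a log2 change of -1.25 (adjusted p = 0.00218, SE 0.24). CEP192 (ENSBTAG00000013380), which recruits material to the centrosome, changed by -0.94 (adjusted p = 0.0035, SE 0.20). SMC3 (ENSBTAG00000013905), a subunit of cohesin and the member with the highest CPM, changed by -0.73 (adjusted p = 0.00817, SE 0.19). All of these were lower in 6 of 6 calves. CENPA (ENSBTAG00000023938), the histone variant of centromeres, had 15 counts on d 0 and 17 on d 7 (adjusted p = 0.587).

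The member that rose was CDKN1C (ENSBTAG00000031184), the cyclin-dependent kinase inhibitor p57, which restrains the cell cycle. It had 2.37, 3.2 and 15.9 CPM at the lowest, median and highest on d 0 and 4.55, 8.81 and 30.1 CPM on d 7, a log2 change of 1.27 (adjusted p = 0.00602, SE 0.30). It was higher in 6 of 6 calves, although the groups overlapped.

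Of 44 genes fixed for DNA replication, 8 were identified under 9 bovine identifiers, of which 4 fell and 0 rose, with a median log2 change of -0.86, beside 209 that fell of all 586 genes with a symbol and 16.5% of all genes tested. The other 5 did not pass. MCM10 (ENSBTAG00000016406), which is needed to start replication, fell from 13.2, 17.4 and 27.7 CPM to 4.8, 6.08 and 12.4 CPM, and no library of d 7 reached the lowest of d 0. Its log2 change was -1.35 (adjusted p = 0.00289, SE 0.28). ORC2L (ENSBTAG00000031473), of the origin recognition complex, changed by -1.12 (adjusted p = 0.00289, SE 0.23), also without overlap. RFC1 (ENSBTAG00000014515), the large subunit of the clamp loader, changed by -1.0 (adjusted p = 0.00289, SE 0.21) and was lower in 5 of 6 calves.

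Of 44 genes fixed for DNA repair and damage signalling, 17 were identified, 16 fell and 0 rose, with a median log2 change of -0.93. For comparison, 209 of all 586 genes with a symbol fell, with a median of -0.75. ATR (ENSBTAG00000011529), the kinase that signals stalled replication forks, had 17.0, 31.0 and 68.7 CPM on d 0 and 13.3, 16.6 and 21.4 CPM on d 7, a log2 change of -0.98 (adjusted p = 0.00571, SE 0.23). RAD1 (ENSBTAG00000019209), of the checkpoint clamp, changed by -0.93 (adjusted p = 0.00618, SE 0.22) and did not overlap between the days. REV3L (ENSBTAG00000010760), the catalytic subunit of a translesion polymerase, changed by -0.82 (adjusted p = 0.00676, SE 0.20). The 3 genes were lower in 6 of 6 calves, and none of them passed without calf 1763.

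Most of the identified genes for the handling of RNA fell. Of 43 genes fixed for RNA splicing, export and decay, 21 were identified under 22 identifiers, 18 fell and 0 rose, with a median log2 change of -0.92. Beside them, 209 of all 586 genes with a symbol fell, with a median of -0.75. XPO1 (ENSBTAG00000013254), the nuclear export receptor, had 123 CPM in calf 1755, 89.8 in calf 1759, 112 in calf 1763, 61 in calf 1789, 56.9 in calf 1802 and 70.7 in calf 1803 on d 0, and 25.7, 30.0, 50.6, 32.5, 34.2 and 52.5 CPM on d 7. The highest value of d 7 was below the lowest of d 0. The log2 change was -1.14 (adjusted p = 0.00131, SE 0.19, exact sign-flip permutation p = 0.0312), and the gene passed the test without any single calf. LRPPRC (ENSBTAG00000016368), a regulator of mitochondrial mRNA stability, changed by -1.08 (adjusted p = 0.00241, SE 0.21).

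All 4 identified aminoacyl-tRNA synthetases of 20 fell, with a median log2 change of -1.04, and all 4 were on the study's list for this comparison. IARS (ENSBTAG00000000974), which charges tRNA with isoleucine, had 76.0, 109 and 181 CPM at the lowest, median and highest on d 0 and 32.7, 55.2 and 77.3 CPM on d 7, a log2 change of -1.08 (adjusted p = 0.00161, SE 0.19). LARS (ENSBTAG00000006765), for leucine, had 47.9, 65.2 and 113 CPM on d 0 and 25.0, 33.2 and 45.7 CPM on d 7, without overlap, a log2 change of -1.06 (adjusted p = 0.00161, SE 0.19). RARS and DARS, for arginine and aspartate, named after their values were seen, fell by 1.01 and 0.93 on the log2 scale. Of 29 heat shock proteins and chaperones, 4 were identified and 2 fell, with a median log2 change of -0.90. This lay near the -0.75 of all genes with a symbol. HSPH1 (ENSBTAG00000005012), the large heat shock protein HSP105, had 34.3, 55.9 and 90.7 CPM on d 0 and 17.5, 25.4 and 39.5 CPM on d 7, a log2 change of -1.18 (adjusted p = 0.00131, SE 0.21). CCT6A (ENSBTAG00000019464), a subunit of the chaperonin that folds actin and tubulin, changed by -1.35 (adjusted p = 0.0113, SE 0.36).

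Of 65 cytosolic ribosomal proteins, 4 were identified and 1 fell, RPL5 (ENSBTAG00000002026), with a log2 change of -1.47 (adjusted p = 0.00785, SE 0.37). The median log2 change of the 4 was -0.77, near the -0.75 of all genes with a symbol. The summed level of the 4 identifiers was 3.73 to 14.8 CPM on d 0 and 0.703 to 9.0 CPM on d 7. Ribosomal proteins have many near-identical copies in mammalian genomes, and reads with several alignments had been suppressed, so that these values are uncertain. RPL17 (ENSBTAG00000020508) had 18 counts on d 0 and 7 on d 7 and did not pass (adjusted p = 0.33).

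**Figure D4:**
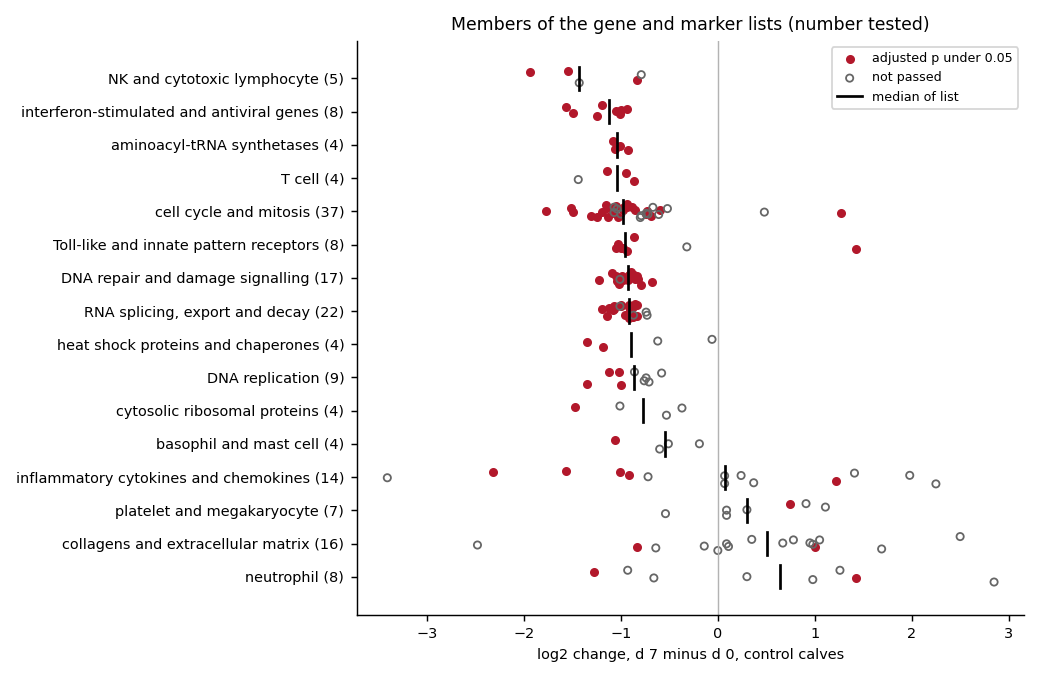
Log2 change from d 0 to d 7 in control calves (x axis) of each tested member of the lists with at least 4 tested members (y axis, number tested in brackets), filled in red where the adjusted p was under 0.05 and open where it was not, with a bar at the median of the list. The medians of 12 lists lie between -1.43 and -0.55, and those of cytokines, platelets, extracellular matrix and neutrophils between 0.07 and 0.64.

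The transcripts that rose were fewer. The immediate early genes FOSB and FOS, which encode subunits of the AP-1 transcription factor, were the 2 identified of 30 fixed, and both rose, with a median log2 change of 1.27. Both were on the study's list for this comparison. FOSB (ENSBTAG00000008182) had 17.8 CPM in calf 1755, 29.0 in calf 1759, 22.7 in calf 1763, 27.9 in calf 1789, 20.4 in calf 1802 and 26.2 in calf 1803 on d 0. On d 7 the same calves had 69.9, 169, 46.5, 36.4, 74.9 and 72.7 CPM. Every library of d 7 was above every library of d 0, and calf 1759, whose d 7 library was the shallowest, was the highest. The log2 change was 1.58 (adjusted p = 1.92e-04, SE 0.22, exact sign-flip permutation p = 0.0312). FOS (ENSBTAG00000004322) had 60.4, 100.1 and 214 CPM at the lowest, median and highest on d 0 and 97.6, 190.4 and 648 CPM on d 7, a log2 change of 0.96 (adjusted p = 0.00395, SE 0.21), and it was higher in 5 of 6 calves.

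SMPD3 (ENSBTAG00000009639), the neutral sphingomyelinase that makes ceramide, had 22.7, 43.7 and 70.1 CPM at the lowest, median and highest on d 0 and 36.2, 101 and 375 CPM on d 7. It was higher in 5 of 6 calves, with a log2 change of 1.28 (adjusted p = 0.00168, SE 0.23, exact sign-flip permutation p = 0.0625). GPR4 (ENSBTAG00000018398), a receptor that senses protons, rose from 18.9, 32.9 and 55.9 CPM to 28.4, 60.3 and 189.7 CPM, also in 5 of 6 calves, a log2 change of 1.12 (adjusted p = 0.00326, SE 0.23). FBP1 (ENSBTAG00000009733), the fructose bisphosphatase of gluconeogenesis, changed by 1.21 (adjusted p = 0.00418, SE 0.27), but was higher in only 4 of 6 calves. In calf 1803 all 3 were lower on d 7, as was FBP1 in calf 1755, and in calf 1802 all 3 had their largest rise, at 2.68 for SMPD3, 2.11 for GPR4 and 2.42 for FBP1 (log2(CPM + 1) scale).

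Markers of neutrophils did not move together. Of 36 fixed, 6 were identified under 8 identifiers, of which 1 rose and 1 fell, with a median log2 change of 0.64, and their summed level was 80.9 to 234 CPM on d 0 and 69.3 to 175 CPM on d 7. PGLYRP1 (ENSBTAG00000002635) rose from 2.09, 4.38 and 25.4 CPM at the lowest, median and highest to 10.6, 12.5 and 31.5 CPM, in 6 of 6 calves, a log2 change of 1.43 (adjusted p = 0.00395, SE 0.31), which was 0.47 with the calves on 1 flowcell. OLR1 (ENSBTAG00000004547), a scavenger receptor for oxidised lipoprotein, fell from 11.5, 25.1 and 37.4 CPM to 4.55, 9.11 and 14.6 CPM, a log2 change of -1.28 (adjusted p = 0.00241, SE 0.25). AQP9 (ENSBTAG00000013452), a glycerol channel of neutrophils, had a log2 change of -0.93 (adjusted p = 0.0674), and ALPL (ENSBTAG00000008951), alkaline phosphatase and the member with the highest CPM, of 0.30 (adjusted p = 0.353). CAMP, an antimicrobial cathelicidin, was paired with 3 identifiers of a family of near-identical copies. That with the smallest p (ENSBTAG00000013356) had 1 count on d 0 and 10 on d 7 (adjusted p = 0.0541), too few for a fold.

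Transcripts of red cells and platelets were measured too, since lysis does not remove all of them. Of 19 erythroid markers, 4 were identified, 3 tested and 2 rose, with a median log2 change of 0.90. HBB (ENSBTAG00000038748), beta globin, rose from 3.14, 6.37 and 8.93 CPM to 4.22, 10.2 and 40.2 CPM, in 6 of 6 calves, a log2 change of 1.00 (adjusted p = 0.0142, SE 0.28). GATA1 (ENSBTAG00000003184), a transcription factor of erythroid cells that eosinophils also express, changed by 0.90 (adjusted p = 0.0188, SE 0.27), in 4 of 6 calves. The erythroid sum was 27.4 to 50.2 CPM on d 0 and 27.6 to 152 CPM on d 7. Much of it was GATA1, which in calf 1802 on d 7 had 139 of the 152 CPM, against 10.9 for HBB. In calf 1789 on d 7 GATA1 had 46.2 and HBB 40.2 CPM. Of 20 platelet markers, 7 were identified and 1 rose, with a median log2 change of 0.30. It was SELP (ENSBTAG00000020755), the adhesion molecule P-selectin, with a log2 change of 0.74 (adjusted p = 0.0367, SE 0.25). SELP had 7.18, 10.0 and 13.2 CPM at the lowest, median and highest on d 0 and 9.46, 13.8 and 43.7 CPM on d 7. Its highest value was in calf 1789. It was higher in 6 of 6 calves, but did not pass when any 1 of calves 1759, 1763, 1789 and 1802 was left out. THBS1 (ENSBTAG00000002006), thrombospondin 1, had 13.2, 124 and 160.4 CPM at the lowest, median and highest on d 0 and 77.5, 94.7 and 135 CPM on d 7 (adjusted p = 0.831). P2RY12 (ENSBTAG00000015837), the ADP receptor, had a log2 change of -0.54 (adjusted p = 0.165).

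Few changes passed among the other cell types. Of 12 eosinophil markers, 2 were identified and neither passed, and their median log2 change was 0.14, with a summed level of 112 to 376 CPM on d 0 and 159 to 510.1 CPM on d 7. ALOX15 (ENSBTAG00000011990), a lipoxygenase of eosinophils, had a log2 change of 0.56 (adjusted p = 0.0598), and IL5RA (ENSBTAG00000000273), the receptor of their growth factor, of -0.29 (adjusted p = 0.682). Of 10 basophil and mast cell markers, 4 were identified and 1 fell, KIT (ENSBTAG00000002699), the stem cell factor receptor, with a log2 change of -1.06 (adjusted p = 0.0105, SE 0.28). The median log2 change of the 4 was -0.55, and FCER1A (ENSBTAG00000012887), the IgE receptor, had one of -0.19 (adjusted p = 0.578) and MS4A2 (ENSBTAG00000020096), its beta chain, one of -0.60 (adjusted p = 0.243). Of 15 dendritic cell markers, 2 were identified and neither passed, with a median log2 change of -0.34. FLT3 (ENSBTAG00000018572), a receptor of dendritic cell precursors, had a log2 change of -0.49 (adjusted p = 0.164) and was lower in 6 of 6 calves. Of 19 monocyte markers, only MARCO (ENSBTAG00000018473), a scavenger receptor, was identified, at 9 counts on d 0 and 12 on d 7. Monocytes could therefore not be followed by their transcripts.

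Of 29 genes of collagens and extracellular matrix, 21 were identified and 16 tested, of which 1 rose and 1 fell, with a median log2 change of 0.51. LAMA4 (ENSBTAG00000008817), a laminin chain, changed by -0.83 (adjusted p = 0.0137, SE 0.23) and TGM2 (ENSBTAG00000016208), the crosslinking enzyme transglutaminase 2, by 1.00 (adjusted p = 0.0171, SE 0.29). FBN1 (ENSBTAG00000002278), fibrillin 1, had a log2 change of -0.64 (adjusted p = 0.082), and TNC (ENSBTAG00000000575), tenascin C, had 1 count on d 0 and 9 on d 7. None of the 22 genes fixed as induced by glucocorticoids was identified, so that a cortisol response could not be examined at the level of these genes.

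The named genes were a selected part of the table. Of 586 genes with a symbol that were tested, 209 fell and 24 rose, and their median log2 change was -0.75. Of the 13243 genes without a symbol, 2077 fell and 1048 rose, with a median of 0.06. Among 153 named genes that the study had listed only in comparisons without any control library of d 0 or d 7, 8 fell and 4 rose, with a median of -0.10. The genes without a symbol with the smallest p were ENSBTAG00000014529, which fell from 98.8 ± 49.0 to 37.9 ± 10.8 CPM (SD, n = 6), and ENSBTAG00000016656, from 238 ± 94.1 to 101 ± 43.5 CPM. Those that rose were ENSBTAG00000026527, from 0.732 ± 0.561 to 4.41 ± 3.37 CPM, and ENSBTAG00000020676, from 50.8 ± 33.5 to 96.6 ± 26.5 CPM.

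On the earlier days after housing, the same calves gave 0 genes past the test. On d 1 against d 0 it was 0 of 13934 (0%, edgeR, smallest adjusted p = 0.922, 419 genes at an unadjusted p under 0.05), and on d 2 it was 0 of 13859 (0%, smallest adjusted p = 0.242, 1283 genes at an unadjusted p under 0.05). These comparisons use the same d 0 libraries as that of d 7, so their values are given side by side only. DDX58 had a mean of 92.9 ± 50.4 CPM on d 1 and 91.0 ± 30.2 CPM on d 2 (SD, n = 6), and log2 changes of -0.43, -0.33 and -1.49 on d 1, 2 and 7. For GZMA the changes were -0.90, -0.52 and -1.94, for TLR7 -0.49, -0.51 and -1.05, and for XPO1 -0.31, -0.34 and -1.14. CXCL10 changed by -0.44, -0.06 and -1.57, and its mean was 14.8 ± 12.3 CPM on d 1 and 19.6 ± 17.5 CPM on d 2. FOSB changed by 0.26, 0.22 and 1.58, and SMPD3 by 0.38, 0.14 and 1.28. For each of these 7 genes the change on d 7 was the largest of the 3. They had been named by their p on d 7, which favours that day, and the difference between days was not tested.

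**Figure D5:**
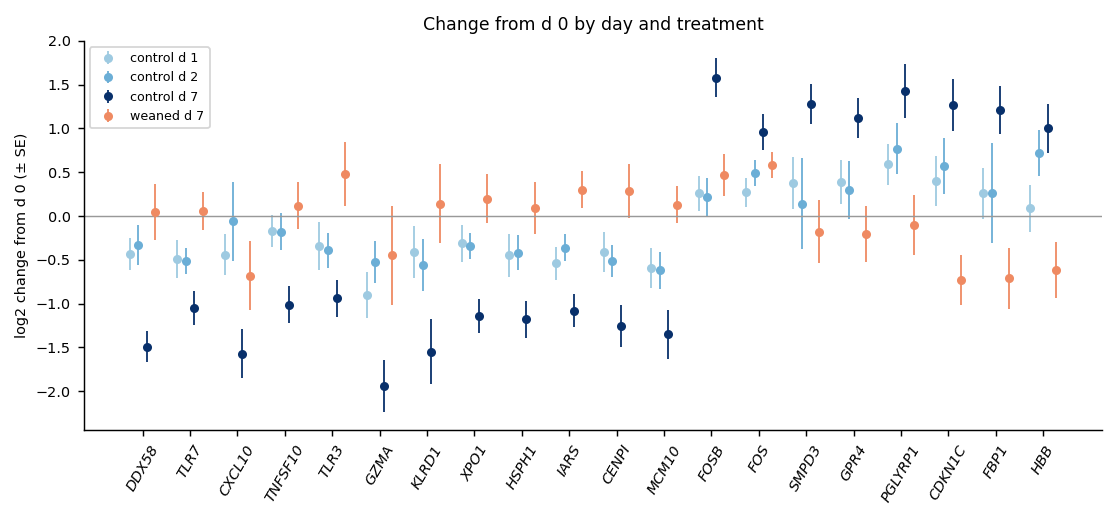
Log2 change from d 0 (y axis, bars are SE) of 20 named genes (x axis) in control calves on d 1, 2 and 7 and in weaned calves on d 7. The control values of d 7 lie furthest from 0 in each gene shown, but the genes had been named by their p on d 7. The control values of all days share the d 0 libraries.

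In weaned calves over the same interval, 0 of 14026 genes passed the test (0%, edgeR, smallest adjusted p = 0.735), and 383 had an unadjusted p under 0.05. Whether the changes differed between treatments was tested as the interaction of treatment and day over 24 libraries with calf as block. Of 14713 genes, 0 passed (0%, edgeR, smallest adjusted p = 0.0811), while 5272 (35.8%) had an unadjusted p under 0.05. DESeq2 passed 2315 genes for the same interaction and edgeR without the filter on low counts passed 933, so that the test of the difference depended on the tool and on the filter.

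Among named genes, those with the smallest interaction p were IARS, TEC and BTLA, whose change was higher in weaned calves, and CDKN1C, TGM2 and CLU, whose change was lower there. IARS had 75 ± 20.7 CPM on d 0 and 96.9 ± 44.8 CPM on d 7 in weaned calves (SD, n = 6), and its change was higher there by 1.40 on the log2 scale (adjusted p = 0.0811, SE 0.33, exact permutation p = 0.00216). That permutation p is the smallest the test allows. It reuses the changes by which IARS was chosen, so that it is not independent evidence of a difference. BTLA had 11.5 ± 4.32 and 19.0 ± 13 CPM in weaned calves, a difference between treatments of 1.71 (adjusted p = 0.0811, SE 0.40). TEC (ENSBTAG00000005062), a tyrosine kinase of antigen receptor signalling, had 87.6 ± 52.2 and 40.8 ± 10.7 CPM in control calves and 54.6 ± 20.7 and 74.6 ± 28.3 CPM in weaned calves, a difference of 1.41 (adjusted p = 0.0811, SE 0.33).

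CDKN1C had 5.26 ± 5.23 and 12.3 ± 9.86 CPM in control calves and 7.73 ± 3.69 and 4.47 ± 1.03 CPM in weaned calves, a difference of -1.99 (adjusted p = 0.0811, SE 0.41). CLU (ENSBTAG00000005574), the extracellular chaperone clusterin, had 13.3 ± 5.88 and 30.8 ± 30.8 CPM in control calves and 18.5 ± 6.26 and 11.9 ± 8.7 CPM in weaned calves, a difference of -1.80 (adjusted p = 0.0811, SE 0.43). For TGM2 the difference was -1.85 (adjusted p = 0.0811, SE 0.48). In control calf 1789 on d 7, CLU stood at 93.4 CPM and TGM2 at 32.2 CPM, the highest control values of that day. The medians of the control libraries of d 7 were 19.2 and 10.5 CPM. Neither gene passed the test of d 7 against d 0 in control calves without calf 1789, or without calf 1763. On d 0, before any calf was housed, the means of the treatments already differed. IARS, TEC and BTLA started lower in weaned than in control calves, where they had 119, 87.6 and 19.5 CPM, and CDKN1C, CLU and TGM2 started higher.

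The 5 genes that passed without any single calf were also followed in weaned calves, in which DDX58, XPO1, GZMA and CXCL10 started below the control means of 121, 85.5, 19.3 and 17.8 CPM. DDX58 had 94.5 ± 35.9 CPM on d 0 and 102 ± 52.7 CPM on d 7 (SD, n = 6), a log2 change of 0.05. XPO1 had 59.5 ± 16.7 and 76.4 ± 48.1 CPM, a change of 0.20, and GZMA 11.1 ± 7.9 and 9.8 ± 10.7 CPM, a change of -0.45. CXCL10 had 9.09 ± 6.47 and 4.92 ± 1.76 CPM, a change of -0.68, and FOSB 26.1 ± 5.87 and 37.4 ± 11.1 CPM, a change of 0.47. The difference from control calves had an adjusted p of 0.0811 for DDX58 and XPO1, 0.0812 for FOSB, 0.117 for GZMA and 0.178 for CXCL10 (edgeR interaction). The weaned calves did not move alike. The median change of the 458 genes that fell in controls was 1.77 in weaned calf 1758 and 0.37 in weaned calf 1770, and between -0.31 and -0.14 in the other 4.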

How the data were processed

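The authors deposited a table of read counts, neither scaled nor normalised, for Ensembl genes in 48 libraries, and each column was matched to its sample by calf and day. Per the study's methods and the submitters' processing notes (CASAVA 1.6, FastQC 0.9.1, Bowtie 0.12.7, HTSeq 0.4.6p2, edgeR 1.6.12), single reads were aligned to Btau4.0 without mismatches, reads with several alignments were suppressed, 1 read was kept at each position and reads were counted on Ensembl genes. Whether counting used the strand is not given in the sources used here, and genes that overlap or have near-identical copies are therefore uncertain. The table holds 25669 genes, of which 18206 have a count, and gives no symbols or positions. No reference table paired its identifiers with symbols or sequences, so symbols of human orthologs from the study's supplementary lists were used, which name 586 of the genes tested, and positions and sequences are not given. An effect of GC content was not examined.

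Counts were fitted in edgeR 4.0.16 (R 4.3.3) with TMM scaling, a minimum of 10 counts in total, calf as block and the quasi-likelihood F-test. The threshold was 0.05 after Benjamini-Hochberg adjustment, and genes rose or fell at least 2-fold where stated. SE is the log2 change divided by the square root of F. CPM were scaled by TMM over all 48 libraries, and changes per calf are on the log2(CPM + 1) scale. Permutation tests are exact and two-sided, of the signs of 6 within-calf changes or of the treatment labels of 12 calves. They reuse the libraries on which the genes were named, and their p is not adjusted for that choice. Genes could be named as follows: the 6 called genes of smallest p in each direction, the 2 of smallest p in each direction and the member with the highest mean CPM of each list, and the 3 of smallest interaction p in each direction. Others are marked in the text. The comparison, the lists and the rule were chosen with earlier results of these data known. In 30 pairs of libraries of 1 group, the chi-square of the counts over its degrees of freedom was 3.82 to 23.1, so that no pair of libraries agreed within counting noise. Same-numbered libraries come from the same calf, which pairs them, and their deviations from the group means correlated at -0.0637 to 0.484. The own calf gave the highest correlation in 4 of 6 calves, but not in calf 1755 (-0.0637, against 0.243 with another calf) or calf 1803 (0.0617, against 0.375). The replicates are calves.

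On simulated counts for d 7 against d 0, the procedure passed 88.5% of 200 genes changed 2-fold and 99.5% of 200 changed 4-fold. For the interaction it passed 54% and 88.5%. The changed genes were drawn from those with more counts than the filter required. All genes had the same dispersion and varied independently of each other. The shares may therefore overstate the power of the tests on the real libraries. Alternatives were no block, RLE factors, DESeq2 1.42.0, no filter, filterByExpr, robust dispersions, the unpaired exact test of edgeR at 1 common dispersion, only calves with both libraries on 1 flowcell, a covariate for reads lost as duplicates, all 24 control libraries, and leaving out each calf. Tables and figures came from pandas 2.3.3, numpy 2.4.6 and matplotlib 3.10.9 under Python 3.11.15.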

Additional observations from a re-analysis of the deposited data

Results flagged for a closer look

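In 4 of the genes named, the within-calf change from d 0 to d 7 of 1 control calf lay far from those of the other 5 (log2(CPM + 1) scale). Chance alone sets about 1 in 20 such groups apart, and 62 genes were examined. DDX58 fell by 0.39 in calf 1802, against changes of -1.98 to -1.53 in the others. CCT6A changed by -2.98 in calf 1755, against -1.30 to -0.34. HBB rose by 2.05 in calf 1789, against 0.27 to 0.88, and the gene did not pass without that calf, nor without calf 1759 or 1763. THBS1, which did not pass the test, changed by 3.26 in calf 1803, against -0.85 to 0.07.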

How the results depend on the processing

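RLE factors, DESeq2, no filter on low counts, the robust fit and all 24 control libraries left the counts of control d 7 against d 0 within 1.5 times of 458 and 79 (2-fold) and of 2286 and 1072, apart from 39 genes that rose 2-fold in DESeq2. With filterByExpr 39 genes rose 2-fold and 567 rose in all. The unpaired exact test gave 132 and 493. With the duplicate covariate 47 rose and 103 fell 2-fold, and 137 rose and 959 fell in all. With the 2 calves on 1 flowcell all 4 counts were 0, in a test of little power. Leaving out 1 calf gave 3 to 137 genes that rose and 20 to 1034 that fell 2-fold, and 4 to 1966 that rose and 25 to 2817 that fell in all, lowest without calf 1763 and highest without calf 1803. Without calf 1759, 83 rose and 485 fell. The cause was not tested. The interaction passed 0 genes with the other alternatives run for it, 2315 with DESeq2 and 933 without the filter.

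Pairing was by animal. Without the replicate block 539 genes rose and 1734 fell, of which 529 and 1727 were those of the paired fit, and 62 rose and 453 fell 2-fold.

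Of 62 named genes, 40 of 61 fitted lost the call without calf 1763 and 20 without calf 1759, while RLE factors changed none. With all 24 control libraries 10 lost it, CXCL10 and SMPD3 among them (adjusted p = 0.061 and 0.0591). In the fit of the calves on 1 flowcell, where no gene passed, 44 of 55 fitted lost it. Directions turned for ALPL (-0.17 on 1 flowcell), for IL5RA (0.27 on 1 flowcell, 0.19 with the covariate, -0.96 to 0.37 leaving out 1 calf), for MARCO (-0.26 in DESeq2) and for THBS1 (-0.09 without the block, -0.09 in the exact test, -0.38 to 0.28 leaving out 1 calf), none of which had passed, and for TLR10 (0.02 on 1 flowcell), which had. GC content could not be examined.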
